A study of Homo sapiens with 2 samples.

Results

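The 8 nuclear receptor genes NR3C1, NR6A1, NR4A1, NR4A3, RARA, RORA, VDR and NR2C2 took part in 195 of the 49245 interactions listed for TCF3::HLF by HiChIP. A row of the list was counted for a gene when at least 1 of its 2 bins overlapped the gene body, as annotated by GENCODE release 44 on hg38, or the 10 kb on either side of it. The related receptor gene RXRA is given for comparison only. TCF3::HLF is the fusion transcription factor of t(17;19)-positive B cell acute lymphoblastic leukemia, in which HLF supplies the part that contacts DNA. The cells were HAL-01, a leukemia line that carries t(17;19), with the wild-type TCF3 allele knocked out (TCF3-KO), so that an antibody against TCF3 pulled down the fusion. HiChIP joins DNA ends that lie close together in the nucleus, enriches the pieces bound by the protein and counts the read pairs that connect a pair of distant 5-kb bins, here called the contact count. The design had a single condition, MNase-digested chromatin of these cells, in 2 biological replicates that the authors merged before interactions were called. There was no control group, and HAL-01 is 1 cell line, so no value has a replicate error and no difference between conditions could be tested.

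Nuclear receptors are transcription factors whose activity is often set by small lipophilic ligands. A ligand-bound receptor binds its response element on DNA and exchanges corepressors for coactivators, whereas orphan receptors have no settled ligand. In lymphoid cells NR3C1, the glucocorticoid receptor, is known as the target through which glucocorticoids kill leukemic lymphoblasts. HLF belongs to the PAR family of basic leucine zipper factors and binds a site that is written here as the HLF motif.

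Both strands were searched for the HLF motif in 2 exact forms, TTACGTAA and TTATGTAA. The sites below lie in the most used anchor bins of the members and are shown because the results come back to these bins. Each has 28 bases of hg38, read 5′ to 3′ on the strand of the match, with the motif in capitals. An anchor is a bin that took part in at least 1 listed interaction.
NR3C1, upstream start site (chr5:143435492-143435519): tgtggtcaggTTATGTAAgggtttgctt
NR3C1, second site in the same bin (chr5:143436108-143436135): cacagatcttTTATGTAAaacaatgaca
NR3C1, site in the intragenic bin (chr5:143310506-143310533): ccaagaacctTTATGTAAtcagctctca
NR3C1, site in the bin beside it (chr5:143309825-143309852): agaaaggaaaTTATGTAAtaatgaaact
NR6A1, intron 2 (chr9:124658693-124658720): gtaaaaagtcTTACGTAAcagttcagga
NR6A1, intron 1 (chr9:124767787-124767814): aaagcatattTTATGTAAttacacttta
NR4A1, before a start site (chr12:52036962-52036989): tggccgcgggTTATGTAAccgggtgtgc
RORA, intron 1 (chr15:61196146-61196173): accccaaaagTTACGTAAttttgcccca
VDR, intron 3 (chr12:47871932-47871959): tccagattctTTATGTAAaagtgcatat

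All 8 genes had at least 1 interaction, where 64.5% of the 19970 protein-coding genes did, but the genes were chosen with earlier results of the list known and nothing is read from that count. NR3C1 alone gave 92 of the 195 interactions (47.2%). NR6A1 followed with 38, VDR with 22, RORA with 17, NR4A3 with 13, NR4A1 with 8, NR2C2 with 3 and RARA with 2. Longer genes offer more bins, and per 100 kb of gene body and flanks the order was NR3C1 with 51.8 interactions, NR4A3 with 19.99, VDR with 18.1, NR4A1 with 14.1, NR6A1 with 13.9, RARA with 2.92, NR2C2 with 2.38 and RORA with 2.23. NR3C1 was first on both scales, and RORA, by far the longest of the genes at 741 kb, was last per length. In number of interactions NR3C1 ranked 12 and NR6A1 ranked 168 of the 19970 genes, and per length NR3C1 ranked 84. Of the 195, 178 had a bin in a gene body and 17 reached only the flanks, with contact counts from 18 to 47. Just outside the window, between 10 and 20 kb from the genes, lay 5 further interactions, with contact counts from 18 to 33.

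**Figure D1:**
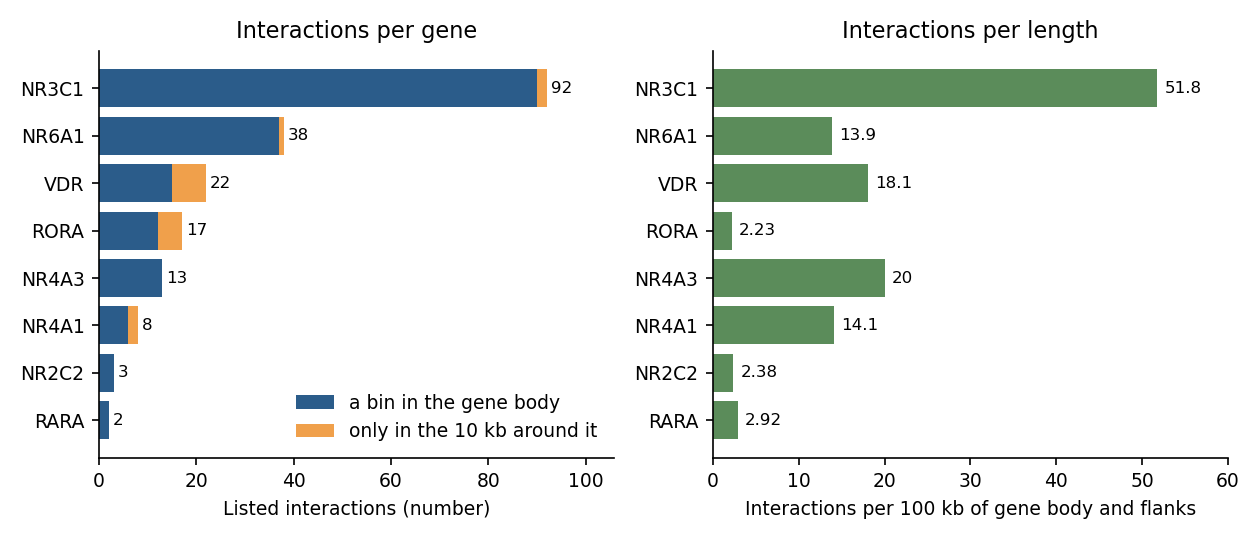
Number of listed interactions of each gene (left, number, with those that had a bin in the gene body and those that reached only the 10 kb around it stacked) and the same number per 100 kb of gene body and flanks (right). NR3C1 stood first on both scales, with 92 interactions and 51.8 per 100 kb, while RORA moved from 17 interactions to 2.23 per 100 kb.

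The contact counts of the 195 interactions ran from 12 to 68, with a median of 26 (95% interval, 24 to 27, from order statistics), where the whole list had a median of 24 and a range of 7 to 615. They add up to 5173 of the 1268490 counts in the list, which is the depth behind the values here. For the lowest count, 12, the exact Poisson 95% interval is 6.2 to 21.0, and for the highest, 68, it is 52.8 to 86.2. Such intervals cover counting error only and take read pairs as independent. Copies of read pairs were kept, so the intervals can be too narrow. Contact counts fall with distance, so each was divided by the median of all listed interactions at the same distance. The median ratio was 1.08 (95% interval, 1.04 to 1.13). By gene the median ratio was above 1 for NR3C1, NR6A1, NR4A1, RARA and NR2C2, 1.00 for RORA, 0.993 for VDR and 0.96 for NR4A3. Over all 8 genes it was 1.00 at a q-value under 1e-05, at a contact count of at least 20 and for merged groups of bin pairs, so a level above the middle of the list was not kept under these settings. The highest contact count, 68, was far below the highest of the list, 615. The median distance was 310 kb (95% interval, 255 to 375), and 20 interactions (10.3%) spanned more than 1 Mb, where 13.7% of the list did. By gene, the median contact count was 26.5 for NR3C1, 28 for NR6A1, 24 for VDR, 22 for RORA, 23 for NR4A3, 22.5 for NR4A1, 33 for NR2C2 and 35 for RARA, and the ranges of all 8 genes overlapped.

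NR3C1 lies on the minus strand of chromosome 5 (chr5:143277931-143435512). Its interactions were gathered in a few bins. The bin chr5:143435001-143440000, which holds the most upstream annotated start site of the gene at 143435512, took part in 29 interactions with contact counts from 16 to 61. By this number it ranked 34 among the 53535 anchor bins of the genome. The bin chr5:143310001-143315000, over exons 3 and 4 and the introns around them, took part in 21 interactions with contact counts from 15 to 49 and ranked 93. The next bin, chr5:143305001-143310000 in intron 4, took part in 10 with contact counts from 14 to 68. Together these 3 bins held 60 of the 92 interactions (65.2%), and chr5:143415001-143420000 had 7. In all, 23 of the 37 bins of the window were anchors.

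The start sites of NR3C1 were used unevenly. Of the 17 annotated transcripts 11, the canonical one among them, start in chr5:143400001-143405000. That bin had 1 interaction, with a contact count of 44 (95% interval, 32.0 to 59.1), which led 400 kb to an intragenic bin of ARHGAP26. The bin with 29 interactions holds the start of a single transcript. Overall 35 of the 92 interactions had a bin with a start site of NR3C1, and 29 of these 35 used that upstream bin. Counted with 10 kb on each side of a start site the number was 49.

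The strongest interaction of NR3C1 by P value joined the upstream start bin to chr5:142970001-142975000 in ARHGAP26, the neighboring gene for a GTPase-activating protein, 465 kb away. Its contact count was 61 (95% interval, 46.7 to 78.4) and its P value 1.28e-38. The upstream bin also met chr5:143160001-143165000, a bin with a start site inside ARHGAP26, at 275 kb. The contact count was 60 (95% interval, 45.8 to 77.2), which is 2.55 times the median of that distance. Start sites of all annotated transcripts were counted, so a start-site bin can lie well inside a gene. The interaction with the highest contact count lay within NR3C1 and joined chr5:143305001-143310000 to chr5:143365001-143370000, 60 kb apart, with a contact count of 68 (95% interval, 52.8 to 86.2) and a sumCC of 123. The sumCC adds the contact counts of neighboring significant bin pairs. These 3 interactions were the highest of all 195, ahead of 1 of NR6A1 with a contact count of 50.

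The interactions of NR3C1 spanned a median of 335 kb, where all listed interactions, limited to 50 kb to 3 Mb, had 255 kb. Both bins lay in the window of the gene in 5 interactions. Of the other 87, 53 had their far end upstream of the gene and 34 downstream, and they used 62 different far bins. ARHGAP26, which lies downstream, held 31 of the far ends, with contact counts from 15 to 61. HMHB1, the gene for the minor histocompatibility antigen HB-1, held 8, with contact counts from 14 to 41, and KCTD16 held 6, with contact counts from 17 to 31. No protein-coding gene covered the far bin in 40 of the 87. A start site of another protein-coding gene was in the far bin of 10, and the genes were ARHGAP26, HMHB1 and PCDHA2. PCDHA2, a protocadherin gene, was met over 2540 kb from chr5:143330001-143335000 in NR3C1 with a contact count of 35 (95% interval, 24.4 to 48.7).

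The most used pair of bins, 125 kb apart, met the same far bin in 3 cases. With chr5:142970001-142975000 the upstream bin had a contact count of 61 and the intragenic bin 30. With chr5:143105001-143110000 the counts were 29 and 17, and with chr5:143810001-143815000 in HMHB1 they were 26 and 22. The upstream bin had the higher count each time, but only for the first pair do the Poisson intervals, 46.7 to 78.4 and 20.2 to 42.8, leave a gap. No interaction between the upstream and the intragenic bin was in the list, where 592 interactions of that distance were listed with contact counts from 13 upward. Listing also depends on the coverage of each bin, so the contact count of this pair is not known.

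**Figure D2:**
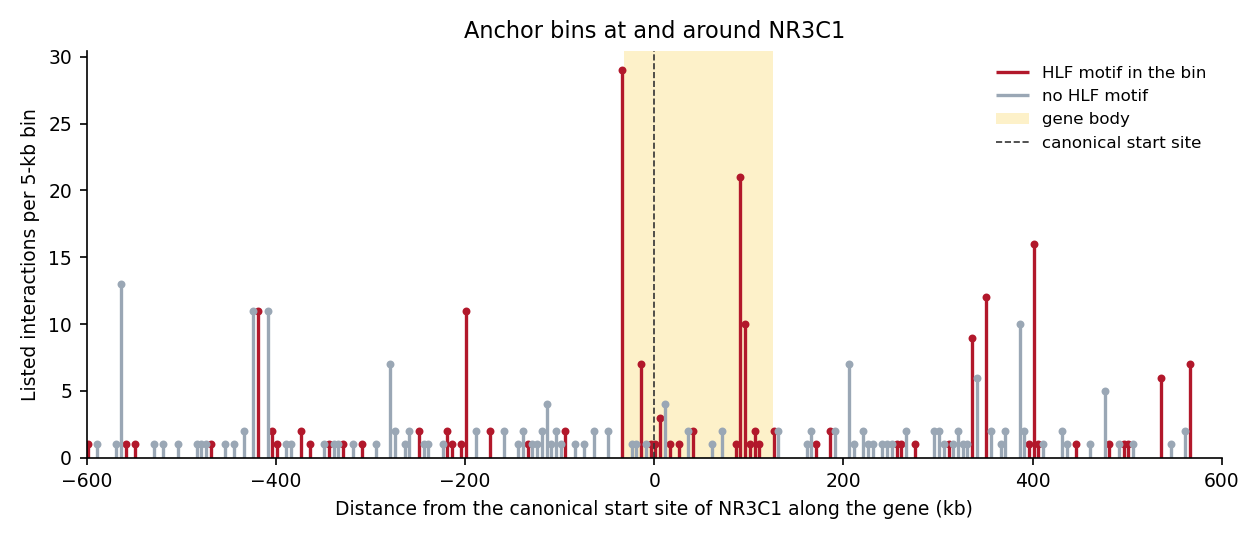
Number of listed interactions in each 5-kb bin within 600 kb of the canonical start site of NR3C1, by distance along the gene (kb, negative before the start), for all interactions of the region and not only those of NR3C1. Red bins hold the HLF motif and gray bins do not, yellow marks the gene body and the dashed line the canonical start site. The upstream bin with 29 interactions and the intragenic bins with 21 and 10 stand above the rest of the gene, and the canonical start has 1.

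The HLF motif was in a bin of 87 of the 92 interactions of NR3C1 (94.6%; Wilson 95% interval, 87.9 to 97.7), where 66.8% of all listed interactions had it, and in both bins of 29. The 3 most used bins of NR3C1, which held 60 of the 92, all carry the motif. The interval takes interactions as independent, so it is too narrow. All 22 sites in its anchor bins were TTATGTAA. The motif was in 15 of the 23 anchor bins of the window and in 4 of its 14 other bins. These had nearly the same G+C content, 37.8% and 37.6% on average. The other members did not all share this. For NR6A1 the motif was in 2 of 16 anchor bins and 8 of 40 other bins, and for RORA in 3 of 8 and 50 of 145. For NR4A1 it was in 1 of 3 and 3 of 9, and for VDR in 2 of 7 and 4 of 18. For NR4A3 it was in 2 of 3 and 2 of 11, for NR2C2 in 2 of 2 and 6 of 24, and for RARA in none. The site printed first covers bases 3 to 10 after the upstream start site of NR3C1. The second site in that bin lies 606 to 613 bases before this start site. A RefSeq promoter of 300 bases around this start (chr5:143435463-143435762, GRCh38.p14) was the only one of 16 promoters of the members to hold the motif, where 355 of 35116 promoters (1.01%) did. The other 6 promoters of NR3C1 had no match, and VDR had no promoter that could be matched. An exact match is a description of the sequence and does not show that TCF3::HLF was bound there.

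NR6A1, an orphan receptor also known as germ cell nuclear factor, lies at chr9:124517275-124771311 on the minus strand and had 38 interactions with contact counts from 13 to 50. The bin chr9:124655001-124660000 in intron 2, which carries the TTACGTAA site shown above, took part in 11, with contact counts from 19 to 50. The bins chr9:124765001-124770000 and chr9:124760001-124765000, just inside intron 1, took part in 9 and 7. These 3 bins held 26 of the 38 interactions (68.4%). None of the 38 used the bin of the canonical start site, and 18 lay within 10 kb of a start site. The strongest interaction by P value ran 615 kb upstream from intron 1, with a contact count of 42 (95% interval, 30.3 to 56.8), to a bin outside protein-coding genes. The highest contact count, 50 (95% interval, 37.1 to 65.9), joined intron 2 to chr9:124710001-124715000 within the gene. In 7 interactions both ends lay in the window of NR6A1. Intron 1 met a bin with a start site inside DENND1A, which encodes an exchange factor for Rab proteins, over 1115 kb with a contact count of 38. Intron 2 met a start-site bin of PPP6C, the catalytic subunit of protein phosphatase 6, over 530 kb with a contact count of 33. Of the genes met at a start site, 10 in all, WDR38 was the nearest of the first 3 by P value, at 85 kb with a contact count of 36. NR5A1, the gene for steroidogenic factor 1, is a neighbor of NR6A1, and 2 interactions joined their windows with contact counts of 29 and 14. The motif was in a bin of 23 of the 38 (60.5%; 44.7 to 74.4), near the 66.8% of the list.

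NR4A1 and NR4A3 encode orphan receptors that are induced as immediate early genes, in lymphocytes through antigen receptor signaling. NR4A1 (chr12:52022832-52059507, plus strand) had 8 interactions, with contact counts of 37, 35, 24, 23, 22, 22, 15 and 14. Of these, 5 used chr12:52035001-52040000, a bin with 3 of the gene's transcripts starting in it and the motif 198 to 205 bases before the nearest start. From that bin the interaction with the start-site bin of ANKRD33, 145 kb away, was the strongest, with a contact count of 35 (95% interval, 24.4 to 48.7) and a P value of 7.64e-16. The same bin met that of KRT80, a keratin gene, with a contact count of 15. The count of 37 belonged to the flank and joined the start-site bins of ACVR1B, an activin receptor gene, and ATG101, a gene of autophagy, so neither of its bins overlapped the body of NR4A1. The canonical start site, further downstream, was in no anchor bin.

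NR4A3 (chr9:99821855-99866891, plus strand) had 13 interactions with contact counts from 12 to 36. None had a bin with a start site of the gene, although 12 lay within 10 kb of one. The bin chr9:99830001-99835000, over exons 4 and 5, took part in 8 and held no HLF motif. The next bin, chr9:99835001-99840000 in intron 5, took part in 4 and held 2. The strongest interaction ran from that bin 305 kb upstream to a bin outside protein-coding genes, with a contact count of 36 (95% interval, 25.2 to 49.8) and a P value of 9.55e-20. The start-site bins of TRIM14 and TBC1D2 were met from the exonic bin over 1715 and 1605 kb, with contact counts of 21 and 12. The motif was in a bin of 8 of the 13 interactions (61.5%). NR4A2, the other member of the subfamily, had 0 interactions.

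VDR, the vitamin D receptor (chr12:47841537-47943048, minus strand), had 22 interactions with contact counts from 14 to 47. It had no single leading bin. The bins chr12:47860001-47865000 in intron 4, chr12:47870001-47875000 in intron 3 and chr12:47945001-47950000, just upstream of the gene, took part in 6 each and together in 18 (81.8%). The bin upstream of VDR and the bin in intron 3 hold the motif and the bin in intron 4 does not. The strongest interaction joined intron 3 to a bin with a start site of PFKM, the muscle phosphofructokinase gene, 270 kb away. It had a contact count of 45 (95% interval, 32.8 to 60.2) and a P value of 3.29e-25. That PFKM bin, chr12:48140001-48145000, lies toward the 3′ end of the gene. The upstream bin met the start-site bin of TMBIM6, a regulator of cell death, over 1790 kb with a contact count of 28. The start-site bin of RPAP3, which encodes an assembly factor of RNA polymerase II, was met from 3 bins of the VDR window with contact counts of 26, 26 and 20. The highest contact count, 47 (95% interval, 34.5 to 62.5) with a sumCC of 131, belonged to the flank, where the bin chr12:47830001-47835000 holds a start site of HDAC7, a histone deacetylase gene, and its far bin lies in RAPGEF3 and SLC48A1. Only 15 of the 22 had a bin in the body of VDR. The motif was in a bin of 17 of the 22 (77.3%; 56.6 to 89.9).

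RARA, the retinoic acid receptor alpha and a partner of RXR proteins, had the fewest interactions. The bin chr17:40350001-40355000, toward the 3′ end of the gene and with the start of 1 of its 10 transcripts, met chr17:40420001-40425000 at 70 kb with a contact count of 40 (95% interval, 28.6 to 54.5) and a P value of 2.72e-18. The bin chr17:40310001-40315000 in intron 1, next to the canonical start, met the start-site bin of TOP2A, the gene for topoisomerase II alpha, at 105 kb with a contact count of 30 (95% interval, 20.2 to 42.8). The motif was in neither bin of the first interaction and in the TOP2A bin of the second. No bin of the RARA window held it, anchor or not.

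RORA, a receptor known for roles in lymphoid development and the circadian clock, spans chr15:60488284-61229302 on the minus strand. Its 17 interactions had contact counts from 15 to 30, and 2 bins held 15 of them. The bin chr15:61195001-61200000 in intron 1 took part in 9, with contact counts from 15 to 30, and carries both forms of the motif. Its strongest interaction ran 190 kb upstream with a contact count of 30 (95% interval, 20.2 to 42.8), and 3 of the 9 ended further inside RORA. The bin chr15:60475001-60480000 took part in 6 but lies in the flank. It holds the start site of ICE2, the neighboring gene for a subunit of the little elongation complex. Among the 6 was an interaction over 700 kb with chr15:61175001-61180000 in intron 1 of RORA, with a contact count of 25 (95% interval, 16.2 to 36.9). The smallest P value, 4.14e-13, belonged to this flank, over 2335 kb to a bin in ALDH1A2 and AQP9, with a contact count of 27. From the same ICE2 bin the start-site bin of BNIP2 was met with a contact count of 19. No interaction had a bin within 10 kb of a start site of RORA. The motif was in a bin of 12 of the 17 (70.6%).

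NR2C2, the orphan receptor TR4, had 3 interactions. They joined chr3:15050001-15055000 to TBC1D5 over 2730 kb with a contact count of 34 (95% interval, 23.5 to 47.5), chr3:15035001-15040000 to TBC1D5 over 2460 kb with a contact count of 33 (95% interval, 22.7 to 46.3), and the first of these bins to LSM3 over 870 kb with a contact count of 23 (95% interval, 14.6 to 34.5). TBC1D5 encodes a GTPase-activating protein for Rab proteins. Their median distance, 2460 kb, was the longest of the 8 genes. Both bins hold the motif, and both also overlap MRPS25, a mitochondrial ribosomal protein gene, so the interactions cannot be told apart between the overlapping genes.

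**Figure D3:**
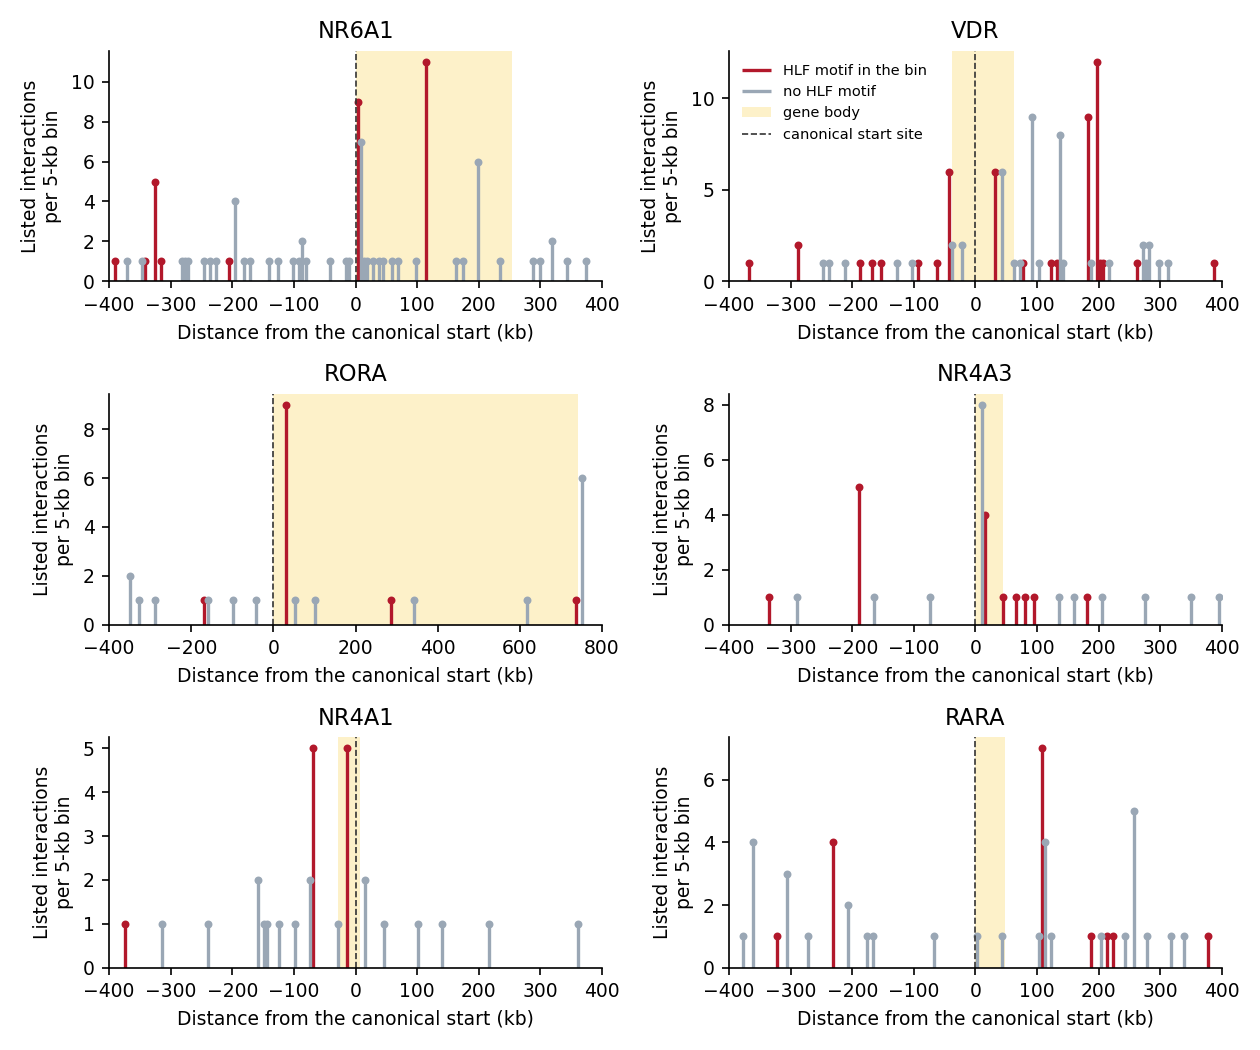
Number of listed interactions in each 5-kb bin around the canonical start site of 6 genes, by distance along the gene (kb, negative before the start), for all interactions within 400 kb of that start, or up to 800 kb after it for RORA. Colors are as in the plot for NR3C1, and each panel has its own vertical scale. Within the plotted range the most used bin of NR6A1, RORA and NR4A3 lies inside the gene, at 11, 9 and 8 interactions, and in none of the 6 is the canonical start in the most used bin plotted.

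The members differed in how their start sites took part. A start site of NR3C1, NR6A1, NR4A1, RARA or VDR was in an anchor bin, which is 5 of the 8 genes. Of protein-coding genes 26.6% had one, but all 8 members had an interaction, where 64.5% of protein-coding genes did. The members were chosen with earlier results of the list known, so nothing is read from the 5 of 8. Each member had from 2 to 6 bins with a start site. Of the 195 interactions 45 had a bin with a start site of its member gene, 35 of NR3C1, 6 of NR4A1, 2 of VDR and 1 each of NR6A1 and RARA, and 1 interaction used a canonical start site. A start site of any protein-coding gene was in a bin of 82 (42.1%), where 24.0% of all listed interactions had one. The upstream start bin of NR3C1 alone took part in 29 of the 82. The rule takes interactions at gene bodies, which hold the start sites, so these shares were not drawn alike. What lay behind the higher share was not tested. At the far end, which the rule did not use, 37 of 177 interactions (20.9%) met a start site of a protein-coding gene. This share looks at 1 bin of each interaction and the 24.0% at 2, so they cannot be set side by side.

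Over all 8 genes the HLF motif was in a bin of 157 of the 195 interactions (80.5%; 74.4 to 85.5) against 66.8% of the list, and in both bins of 43 (22.1%) against 16.2%. Interactions that share an anchor share its motif, so these Wilson intervals, which take interactions as independent, are too narrow. NR3C1 gave 87 of the 157. Without NR3C1 the share was 70 of 103 (68.0%; 58.4 to 76.2). Counted once per bin, the motif was in 27 of the 64 anchor bins of the members, where 31.5% of the 53535 anchor bins of the list held it. NR3C1 gave 15 of the 27 and 23 of the 64, so this share rests largely on NR3C1. Among the members' bins the share was 11 of 36 for those with 1 interaction and 6 of 13 for 2 to 4. It was 6 of 11 for 5 to 9 and 4 of 4 for 10 or more. These last 4 were the NR3C1 bins with 29, 21 and 10 interactions and the NR6A1 bin with 11. Over all anchor bins the same steps gave 28.5%, 34.3%, 49.7% and 66.7%. The TTACGTAA form alone, found in a most used bin of NR6A1 and RORA, was in 12.8% of the members' interactions and 8.3% of the list.

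Among the 48 genes of the nuclear receptor family 37 had an interaction (77.1%), and without the 8 members 29 of 40 (72.5%). Of all protein-coding genes 64.5% had one, but their median length was 27.5 kb against 53.6 kb for the family and 48.9 kb without members. Per 100 kb the median was 2.38 without the members and 2.23 over all protein-coding genes. NR3C1 had the most, followed by RXRA with 54, NR3C2, the mineralocorticoid receptor gene and closest relative of NR3C1, with 46, NR6A1 with 38, VDR with 22 and RORA with 17. RXRA had contact counts up to 135, where the highest of the members was 68, and 0 interactions at a start site of its own. NR3C2 had contact counts up to 57. The 11 receptor genes with 0 interactions included NR4A2, PGR and PPARD.

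The genes that nuclear receptors work with were counted by the same rule. Of 16 coregulator genes 14 had an interaction (87.5%), among them NCOA2, a steroid receptor coactivator, with 39 and CREBBP, a histone acetyltransferase, with 22. Of all protein-coding genes 64.5% had one, but the median length of the coregulator genes was 152 kb against 27.5 kb for all genes. Of 8 genes for chaperones that hold steroid receptors ready for ligand 5 had one (62.5%, below the 64.5% of all genes), led by DNAJB1 with 13, FKBP5 with 10 and PTGES3 with 5. Of 12 genes that are textbook targets of these receptors 10 had one (83.3%), led by SGK1 with 13, ZBTB16 with 10 and TSC22D3, the glucocorticoid-induced leucine zipper gene, with 9. The median per 100 kb was 14.0 over the 8 members, 2.38 over the other 40 receptor genes and 2.23 over all protein-coding genes. It was 4.61 over the coregulators, 6.74 over the chaperones and 6.60 over the targets. The members were chosen with earlier results of the list known, so nothing is read from their 14.0. No test was made between the lists.

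**Figure D4:**
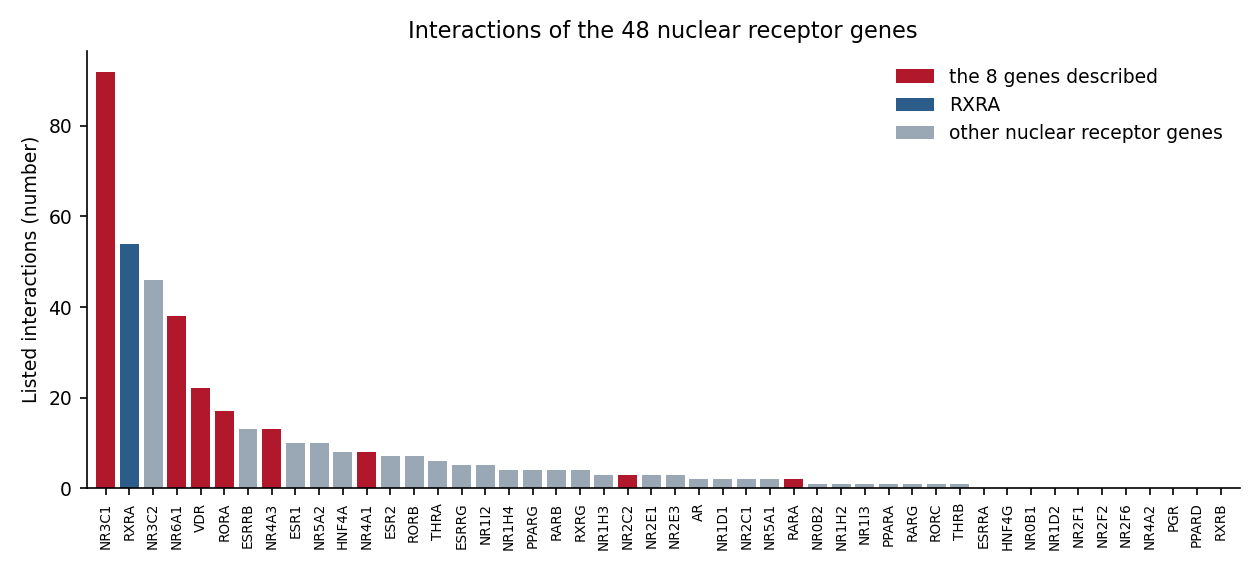
Number of listed interactions of each of the 48 nuclear receptor genes, in falling order, with the 8 genes described in red, RXRA in blue and the others in gray. NR3C1 had 92, RXRA 54 and NR3C2 46, and 11 genes had 0.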

How the data were processed

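TCF3::HLF HiChIP was carried out on TCF3-KO HAL-01 cells with an MNase kit, in 2 biological replicates of 1 condition. Reads were trimmed by the authors with Trim Galore 0.6.6, replicates were joined, and alignment used BWA-MEM and hg38. They extracted pairs with pairtools without its dedup step, called reference peaks with MACS2 and called interactions with FitHiChIP (5-kb bins, 50 kb to 3 Mb, q-value under 0.01, nearby contacts merged). The version of FitHiChIP is not given in the sources used here. Keeping copies of read pairs can raise contact counts, and merging leaves no replicate error.

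The deposited contact count and sumCC are raw counts of read pairs. The deposited P value and q-value come from the authors' FitHiChIP background for distance and coverage. The deposited fraction, how much of a merged group was significant, was not used in a result. Interactions were counted from the list as deposited, with 0 bins past the end of an hg38 chromosome. Genes are from GENCODE release 44 and promoters, from 250 bases before to 50 after a start, from RefSeq (GRCh38.p14). Shares have Wilson and single contact counts exact Poisson 95% intervals. Intervals of shares and medians take interactions as independent, although many share an anchor. No interaction had 2 bins with near-identical sequence (500 or more shared 31-mers, highest 47).

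The member genes, the 4 gene lists and the rules were chosen with earlier results of these data known. Named were the members, RXRA, the genes of each list with the most interactions (up to 3), the protein-coding genes with a start site in a far bin (up to 3 per member, by P value) and the genes whose body held the far bin of a member's strongest interaction by P value or by contact count. KCTD16, ICE2, HDAC7, ATG101, NR5A1, MRPS25, LSM3, NR4A2, PGR and PPARD and the most used bins were named after their values were seen. The result of 1 coregulator gene is not reported here. Alternatives were stricter q-values, a contact count minimum, a distance limit, other windows, merged ranges or groups, other start sites, other motif rules, sumCC and other distance bands. The counting functions were tested on simulated data. Tools were samtools 1.23.1 and Python 3.11.15 with pandas 2.3.3, numpy 2.4.6, matplotlib 3.10.9, pyfaidx 0.9.0.4 and scipy 1.17.1.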

Additional observations from a re-analysis of the deposited data

How the results depend on the processing

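The list is 1 merged set, so no replicate could be left out. No paired analysis was possible because the replicates were merged before the interactions were called. Of the 47 alternative values for the summary results, 35 stayed within the set margin and 12 moved. Of the 64 for single genes, 53 stayed and 11 moved, 8 of them when single bin pairs were left out. The others were NR4A1, with 15 interactions in place of 8, and NR2C2, with 8 in place of 3, when 50 kb around the gene were counted, and NR2C2 with 1 when distances were limited to 1 Mb. All 8 genes kept an interaction at a q-value under 1e-05, where 143 of the 195 interactions were left, and with gene bodies alone, where 178 were. When single bin pairs were left out, so that each interaction stood for a merged group, 25 interactions of 5 genes were left, 3 of them at a start site, and the median ratio to the same distance was 1.00. That ratio was also 1.00 at a q-value under 1e-05 and at a contact count of at least 20. Interactions at a start site numbered 103 with 10 kb allowed and 1 with canonical start sites. The share with an HLF motif was 12.8% with TTACGTAA only and 98.5% with each bin widened by 1 bin on each side, where the whole list had 8.3% and 90.4%. Without the interactions of NR3C1, an alternative chosen after the data were seen, 103 interactions were left, 68.0% of them with a motif, at a median ratio of 1.06. The exact Poisson interval of a contact count of 26, the median, runs from 17.0 to 38.1, so genes with 2 or 3 interactions cannot be ordered by strength.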

Other observations

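The bins around NR3C1 were themselves much used, and the values below were noted after they were seen. Besides the bins of NR3C1, the region within 1 Mb of its canonical start site held 2 bins with 16 interactions each, chr5:143000001-143005000 in ARHGAP26 and chr5:144185001-144190000 in KCTD16, and both hold the HLF motif. ARHGAP26 had 108 interactions over its own body and flanks, more than the 92 of NR3C1, over a length of 458.6 kb as against 157.6 kb. HMHB1, with a gene body of 8.6 kb, had 36 and KCTD16 had 40. TBC1D5, which the far ends of NR2C2 met, had 92 over a length of 1287.7 kb.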
